A study of Homo sapiens with 4 samples.

Results

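The mitochondrial ribosome translates the few proteins that the mitochondrial genome encodes, all of them subunits of the respiratory chain and ATP synthase. Its RNA is made in the organelle, whereas its proteins are encoded in the nucleus, translated in the cytosol and imported. Most genes of the large subunit carry the symbols MRPL and most of the small subunit MRPS, but MRPS18A and MRPS30 belong to the large subunit. The 78 genes described here were chosen by symbol alone, as all entries of the deposited table named MRPL or MRPS with a number and at most 1 further letter, out of 36203 genes in the table. All 78 are annotated as protein-coding, and all passed the filter for testing, at least 1 FPKM in at least 2 libraries (FPKM is a level corrected for gene length and for the reads in a library). YTHDF3, the protein immunoprecipitated here, is a cytoplasmic reader of N6-methyladenosine (m6A), a modification of adenosines in mRNA.

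The series compared RNA recovered with an anti-YTHDF3 antibody (RNA immunoprecipitation, RIP) with input RNA, in 2 libraries of each kind. No treatment or genotype differed between the groups. The characteristics give MDA-MB-231, an established breast cancer line, and the growth protocol gives its derivative MDA-MB-231Br, so which of the lines was used is not settled here. Separate cultures are not mentioned in the labels, and p-values therefore measure the spread between these libraries alone, which may be technical. No pull-down with a control antibody was analysed here, and binding to YTHDF3 cannot be told apart from other retention of RNA. Libraries were made from poly(A)-selected RNA with a stranded kit, per the labels. The line's markers VIM, CD44, EGFR, AXL, CAV1 and KRT18 were all detected in every library, and ESR1, CDH1, PTPRC, GFAP and ACTA1 were listed at 0 in all of them. PGR was at most 0.118 FPKM and PECAM1 at most 0.69 FPKM, and ERBB2 ranged from 5.77 to 31.1 FPKM.

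RIP 2 was the shallowest library. With the commonest low value taken as 1 read, the relative depths were about 6143574 and 7310962 reads for the inputs, 10378259 for RIP 1 and 3105063 for RIP 2. RIP 2 also carried excess signal from chromosomes 1 and 10. Weighted by gene length, 35.9% of its signal came from chromosome 1 and 6.89% from chromosome 10. In the other libraries these shares were 9.20% to 10.6% and 3.56% to 3.99%. Because values are scaled to the library total, this excess lowers all other genes in RIP 2.

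Of the 78 mRNAs of mitochondrial ribosomal proteins, 58 had a log2 fold change below 0 in YTHDF3 RIP against input and 20 above 0, the largest of them MRPL34 and MRPL57. The median level of the 78 genes was 27.8 and 28.9 FPKM in input RNA against 10.1 FPKM (RIP 1) and 8.74 FPKM (RIP 2). In limma, with Benjamini-Hochberg adjustment over all 12848 genes tested, 32 of the 78 were lower in RIP and 2 were higher at an adjusted p under 0.05. Over all genes tested, 24.3% were lower and 15.4% were higher. The median log2 fold change of the members was -1.45, against -0.10 over all genes tested and 0.12 over protein-coding genes. All fold changes are of log2(FPKM + 1), so those of weakly expressed genes are understated. After quantile normalization 35 members were lower and 2 higher, against 2831 and 3085 of the 12848 genes tested. Without RIP 2 the counts were 41 lower and 9 higher (29.1% and 27.4% of all genes), and without RIP 1 they were 45 and 3 (30.6% and 19.2%). With either input left out no gene of the table passed, and 24 members without input 1 and 26 without input 2 were lower, none higher, at an unadjusted p under 0.05 in limma.

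The order of the members changed between input and RIP. Across the 78 genes, levels had a Spearman's rho of 0.86 between the inputs, 0.85 between the RIP libraries and 0.39 between the input mean and the RIP mean. MRPL52, MRPL3, MRPS24, MRPL12 and MRPL47 were the 5 most abundant members in input, whereas MRPL34, MRPL14, MRPS2, MRPL36 and MRPS15 had the highest means in RIP. The RIP libraries differed in this order. In RIP 1 the fifth place was held by MRPS12 (127 FPKM) and MRPS15 had 38.4 FPKM. In RIP 2 the highest were MRPS15 (122 FPKM) and MRPL37 (108 FPKM), both on chromosome 1. For 53 members both RIP values lay below both inputs, for 11 both lay above, and for 14 the ranges overlapped. Over all genes tested, both RIP values lay below both inputs for 40.1% and above for 35.7%.

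**Figure D1:**
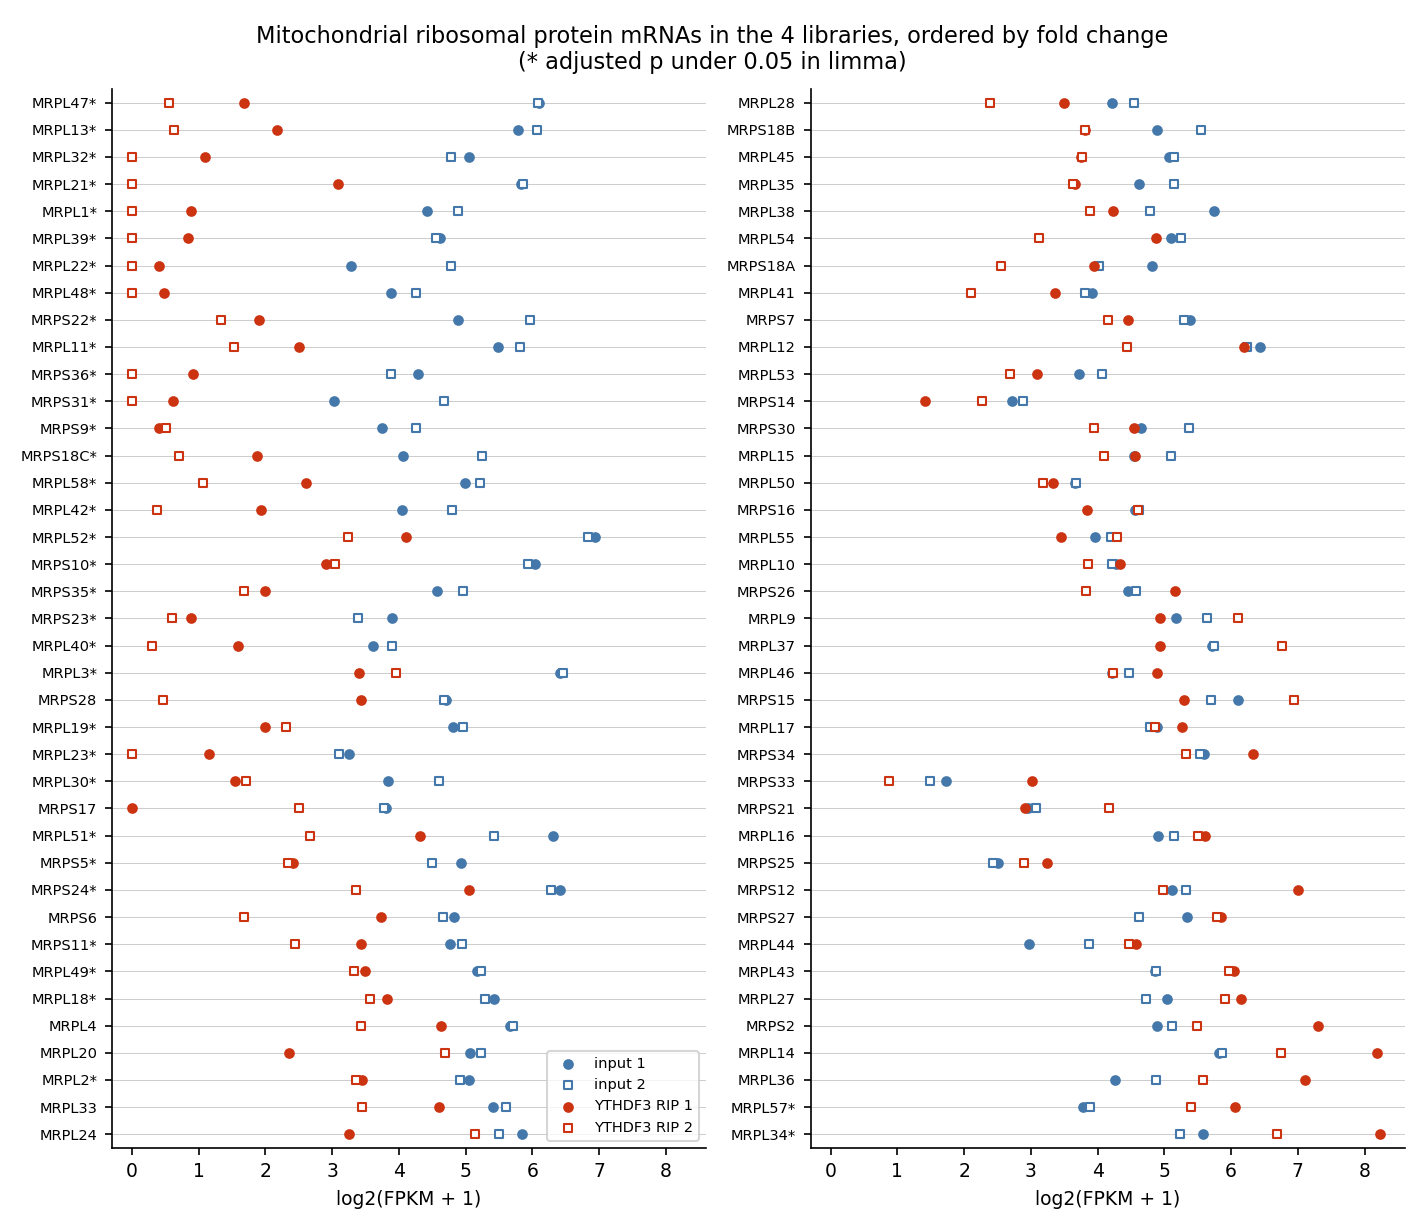
Level of each of the 78 members in every library as log2(FPKM + 1) on the x axis, with members ordered from the lowest to the highest fold change. Blue symbols are inputs and red symbols are RIP, filled circles are library 1 and open squares library 2, and an asterisk marks an adjusted p under 0.05 in limma. RIP lay to the left of input for 53 members and to the right for 11.

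The 8 lowest folds belonged to proteins of the large subunit, and MRPS22 of the small subunit came next (-3.81). The order among the lowest depended on the pseudocount. With 0.1, MRPL32 had -6.37 and MRPL47 had -5.88. MRPL47 is the counterpart of bacterial L29 beside the polypeptide exit tunnel (chromosome 3, 179588285 to 179604654 in GRCh38, minus strand). It had 67.7 and 66.6 FPKM in input RNA against 2.20 FPKM (RIP 1) and 0.470 FPKM (RIP 2). The inputs differed by little and both RIP values were far below them, with a log2 change of -4.97 in limma (SE = 0.56 and adjusted p = 0.00873). MRPL13, on chromosome 8, had 54.0 and 65.97 FPKM in input RNA against 3.50 and 0.544 FPKM after RIP. Its log2 change was -4.52 in limma (SE = 0.63 and adjusted p = 0.00885). MRPL32, whose protein is matured by the m-AAA protease in yeast and mouse, had 32.0 and 26.4 FPKM in input RNA against 1.14 FPKM (RIP 1) and a listed 0 (RIP 2).

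MRPL21 differed most between the RIP libraries among the lowest members. It had 55.7 and 57.2 FPKM in input RNA against 7.52 FPKM (RIP 1) and a listed 0 (RIP 2). Its log2 change of -4.30 (limma, adjusted p = 0.0202) was -2.75 without RIP 2 and -5.84 without RIP 1. The call was lost with a pseudocount of 0.1 (adjusted p = 0.0639) and without the filter (0.0576). MRPL1, which forms the mobile L1 stalk at the exit of tRNA, had 20.5 and 28.5 FPKM in input RNA against 0.841 FPKM (RIP 1) and a listed 0 (RIP 2). MRPL39, a protein found in mitochondrial ribosomes and not in bacterial ones, had 23.4 and 22.5 FPKM in input RNA against 0.800 FPKM (RIP 1) and a listed 0 (RIP 2). MRPL22 and MRPL48 had the next lowest folds (-3.83 each), and their inputs ranged from 8.76 to 26.6 FPKM and from 13.8 to 18.1 FPKM. In RIP 1 they had 0.328 and 0.401 FPKM, and in RIP 2 both were listed at 0. In all, 9 of 78 members were listed at 0 in RIP 2, against 908 of the 12848 genes tested, and all 9 were among the 32 called lower. With transcripts of 600 to 2000 nucleotides, 8 of 61 members and 337 of 2459 protein-coding genes tested were listed at 0 there. MRPS17 was the only member listed at 0 in RIP 1.

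Of the 32 members called lower, 21 encode proteins of the large subunit, 10 proteins of the small subunit, and the other is MRPS36, a mitochondrial protein now assigned to the 2-oxoglutarate dehydrogenase complex. Besides the members already described, the large subunit contributed MRPL11, MRPL58, MRPL42, MRPL52, MRPL40, MRPL3, MRPL19, MRPL23, MRPL30, MRPL51, MRPL49, MRPL18 and MRPL2. The small subunit contributed MRPS22, MRPS31, MRPS9, MRPS18C, MRPS10, MRPS35, MRPS23, MRPS5, MRPS24 and MRPS11. All 32 had both RIP values below both inputs, with log2 fold changes from -4.97 to -1.58. MRPL52, the most abundant member in input, had 121 and 113 FPKM there and 16.3 and 8.40 FPKM in RIP, or -3.21 on the log2 scale (limma, adjusted p = 0.00989). MRPL3, a core protein near the peptidyl transferase centre, had 84.2 and 86.7 FPKM in input RNA against 9.55 and 14.5 FPKM after RIP (limma, log2 change -2.76 with adjusted p = 0.0111).

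MRPL34 and MRPL57 were the members called higher. MRPL34, the counterpart of the small bacterial protein L34 (chromosome 19, 17292609 to 17306843), had 46.7 and 36.7 FPKM in input RNA against 299 FPKM (RIP 1) and 102 FPKM (RIP 2). Both RIP values lay above both inputs, RIP 1 by far the most, and the log2 change was 2.05 in limma (SE = 0.64 and adjusted p = 0.0448). It was 2.82 without RIP 2 and 1.28 without RIP 1, and the call was lost with a pseudocount of 0.1 (limma, adjusted p = 0.0579) or without the filter (0.0887). MRPL57, a protein specific to mitochondrial ribosomes (chromosome 13, 21176645 to 21179084), had 12.8 and 13.7 FPKM in input RNA against 65.4 FPKM (RIP 1) and 41.2 FPKM (RIP 2). Its log2 change was 1.89 in limma (SE = 0.47 and adjusted p = 0.0258). It kept this call under every alternative that used all 4 libraries.

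MRPL36 and MRPL14 had folds close to these and did not pass over all genes. MRPL36, the counterpart of bacterial L36 (chromosome 5, 1798386 to 1801366), had 18.1 and 28.3 FPKM in input RNA against 137 and 46.9 FPKM after RIP, or 1.78 on the log2 scale (limma, adjusted p = 0.0643). MRPL14, at the face where the subunits meet (chromosome 6, 44113454 to 44127457), had 55.4 and 57.3 FPKM in input RNA against 291 and 107 FPKM after RIP, or 1.63 on the log2 scale (limma, adjusted p = 0.0741). In each of these genes RIP 1 was over RIP 2 and both were over the inputs. Without RIP 2 the log2 changes of MRPL36 and MRPL14 were 2.54 and 2.35, and without RIP 1 they were 1.02 and 0.91. Both genes passed with median scaling, with RIP 2 adjusted within chromosomes and with the length trend removed (limma, adjusted p from 0.0125 to 0.0374). The 4 members with the largest folds, MRPL34, MRPL57, MRPL36 and MRPL14, made up 5.34% and 5.24% of the summed FPKM of all members in the inputs, 35.8% in RIP 1 and 20.8% in RIP 2.

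The letters GGACT, a common context of m6A, occurred at both ends of the order of folds. They were searched on the sense strand of the representative transcripts, and m6A itself was not measured in these libraries. At least 1 match was present in 60 of the 78 members, in 26 of the 32 called lower and in neither of the 2 called higher. Among transcripts of 600 to 2000 nucleotides a match was present in 75.4% of members and 78.2% of all protein-coding genes tested. Windows around all matches in 2 of the lowest members (MRPL47, MRPL1) and in the 2 highest members that hold one (MRPL36, MRPL14) are printed with GGACT in capitals, so that their contexts can be compared. A match is a description and not a modified site.
MRPL47, coding: ttgtcaaggaaaGGACTagaagaattttt
MRPL47, 3′ UTR: ttaataaacggaGGACTttgattcaaaat
MRPL1, 5′ UTR: gggcaacacggaGGACTaacagtaacacc
MRPL36, coding: gaagcgctgcaaGGACTgttacctggtga
MRPL14, 3′ UTR, first: cctctggttgcaGGACTcgtgaatggagc
MRPL14, 3′ UTR, second: taagttcatccaGGACTgtcaggccctgg
The windows are 29 nucleotides of the transcripts in GENCODE release 29 on GRCh38, at chr3:179602693-179602721 and chr3:179588464-179588492 on the minus strand for MRPL47, chr4:77862663-77862691 on the plus strand for MRPL1, chr5:1798689-1798717 on the minus strand for MRPL36, and chr6:44113802-44113830 and chr6:44113508-44113536 on the minus strand for MRPL14.

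MRPS2, MRPL27, MRPL43 and MRPL44 completed the 8 highest folds, and none of them passed. MRPL27, which reaches towards the peptidyl transferase centre in bacteria, had 32.0 and 25.5 FPKM in input RNA against 69.7 and 59.0 FPKM after RIP. Its 2 RIP values lay close together and above both inputs, with a log2 change of 1.14 (limma, adjusted p = 0.0844). MRPL43 had 28.1 and 28.3 FPKM in input RNA against 64.7 and 61.6 FPKM after RIP (limma, log2 change 1.14 with adjusted p = 0.0785). Exons of MRPL43 overlap those of SEMA4G and TWNK on the other strand over 36.9% of their length, and the use of strand in counting is not given in the sources used here. MRPS2 had 28.6 and 33.6 FPKM in input RNA against 157 FPKM (RIP 1) and 44.1 FPKM (RIP 2). MRPL44 had 6.84 and 13.7 FPKM in input RNA against 22.7 and 21.1 FPKM after RIP.

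The remaining members did not pass. Of the 44 members called neither way, 26 had a log2 fold change below 0 and 18 above. On the lower side, MRPL45, which tethers the ribosome at the inner membrane, missed the threshold narrowly. It had 32.7 and 34.3 FPKM in input RNA against 12.4 and 12.6 FPKM after RIP (limma, log2 change -1.35 with adjusted p = 0.0505). MRPS17 had 13.1 and 12.8 FPKM in the inputs, a listed 0 in RIP 1 and 4.71 FPKM in RIP 2 (adjusted p = 0.0523, limma). MRPL45 and MRPS17 both passed on genes outside chromosomes 1 and 10 (limma, adjusted p = 0.0335 and 0.0426). With the length trend removed, MRPL45 had a log2 change of -0.45 (limma, adjusted p = 0.455) and MRPS17 did not pass (0.132). MRPS17 was also further from the threshold with a pseudocount of 0.1 (limma, adjusted p = 0.113) and without the filter (0.118). Just inside the threshold, MRPS24 had 84.3 and 77.0 FPKM in input RNA against 32.3 and 9.30 FPKM after RIP (limma, log2 change -2.14 with adjusted p = 0.0414). That call was lost with a pseudocount of 0.1 (limma, adjusted p = 0.0570), without the filter (0.0843) and with the length trend removed (0.0652). MRPL12, the flexible stalk protein that recruits translation factors, had 85.3 and 74.8 FPKM in input RNA against 72.2 FPKM (RIP 1) and 20.7 FPKM (RIP 2). Only RIP 2 was well below the inputs there. The log2 fold change of -1.02 did not pass (limma, adjusted p = 0.245), and it was -1.90 without RIP 1. Exons of MRPL12 overlap those of AC139530.2 on the same strand over 68.2% of their length, and MRPS24 shares exons with the readthrough gene URGCP-MRPS24.

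Members of both subunits were called lower. Of 51 members in the large subunit, 21 were lower and 2 higher, and the median log2 change was -1.44. Of 26 in the small subunit, 10 were lower and none higher, with a median of -1.67. Proteins with a counterpart in bacteria (48 members) had 19 lower and 1 higher and a median of -1.53, and those specific to mitochondria (29 members) had 12 lower and 1 higher and a median of -1.17. No test of these differences was made. Among proteins of the stalk, MRPL11 had a log2 fold change of -3.63, MRPL12 of -1.02 and MRPL10 of -0.14, the last of which was 0.09 without RIP 2. MRPS12, of the decoding centre, had 33.6 and 38.9 FPKM in input RNA against 127 FPKM (RIP 1) and 30.5 FPKM (RIP 2), so the RIP libraries lay on either side of the inputs.

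The S18 paralogs had log2 fold changes from -3.37 to -1.17. Bacteria have a single S18 protein and human mitochondria have MRPS18A, MRPS18B and MRPS18C, of which MRPS18A sits in the large subunit. MRPS18C had 15.7 and 37.1 FPKM in input RNA against 2.66 and 0.638 FPKM after RIP (limma, log2 change -3.37 with adjusted p = 0.0146). MRPS18B had 28.7 and 45.6 FPKM in input RNA against 13.0 and 13.0 FPKM after RIP (limma, log2 change -1.41 with adjusted p = 0.0553). MRPS18A had 27.1 and 15.2 FPKM in input RNA against 14.3 and 4.86 FPKM after RIP (limma, log2 change -1.17 with adjusted p = 0.175). In each of them both RIP values lay below both inputs. MRPS18B passed on genes outside chromosomes 1 and 10 (limma, adjusted p = 0.0377). With the length trend removed its log2 change was -0.63 (limma, adjusted p = 0.326). Whether the paralogs' folds differ was not tested.

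Transcript structure varied with the folds among the members. Numbers of exons, lengths and base composition were taken from 1 representative GENCODE transcript per gene. Across the 78 members, the log2 fold change had a Spearman's rho of -0.51 with exon number, 0.45 with GC content, 0.26 with the density of GGAC, -0.18 with coding length and -0.04 with transcript length. Over the 10852 protein-coding genes tested the same values were -0.08, 0.17, 0.18, 0.36 and 0.35. These are correlations across genes that share the same 4 libraries, so they are descriptions. The relation with exon number was -0.53 in RIP 1 against the input mean and -0.43 in RIP 2, and that with GC content 0.48 and 0.38. Exon number and GC content had a rho of -0.18 with each other across the members.

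Both members called higher have 2 exons. The 22 members with 1 to 3 exons had a median log2 fold change of -0.29, with 2 lower and 2 higher, against 14.5% and 37.2% of all protein-coding genes in that class. The 33 members with 4 to 6 exons had a median of -1.48 with 15 lower and none higher, against 27.0% and 19.8%. The 23 members with 7 or more exons had a median of -2.92 with 15 lower and none higher, against 18.4% and 11.6%. MRPL34, MRPL57 and MRPL36 have 2 exons each and MRPL14 has 3, against 7 in MRPL47, MRPL13 and MRPL21, 9 in MRPL1 and 10 in MRPL39. MRPL32, with 3 exons and a log2 fold change of -4.36, and MRPS27, with 11 exons and 0.84, went against this order. Of the 22 members under 45% GC, 15 were lower (median -2.91), against 27.7% of such protein-coding genes (median -0.42). Of the 20 members at 55% GC or more, 4 were lower (median -1.07), against 13.4% (median 0.36). All 9 members with under 45% GC and 7 or more exons were lower (median -3.83), against 28.4% of such protein-coding genes (median -0.61). These GC classes were not matched for transcript length. The median lengths of members and of all such genes were 1818 and 4095.5 nucleotides under 45% GC, and 1169.5 and 2479 at 55% or more. With under 45% GC and 7 or more exons they were 1490 and 4355.5 nucleotides. Over all protein-coding genes tested, the median log2 fold change was 1.21 with 1 to 3 exons, -0.02 with 4 to 6 and -0.06 with 7 or more.

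**Figure D2:**
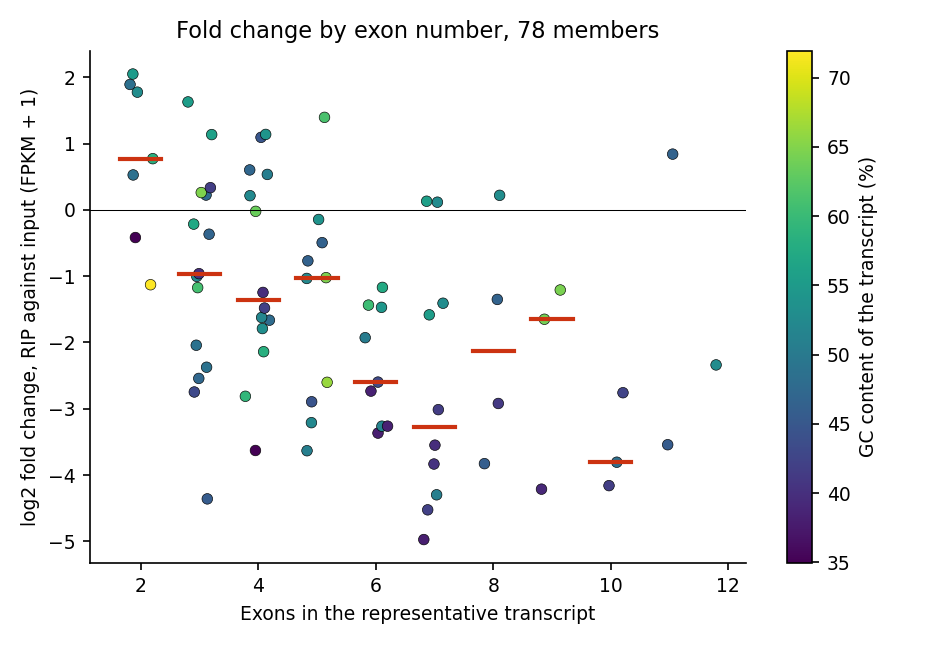
Log2 fold change of RIP against input on the y axis by number of exons on the x axis for the 78 members, with points spread sideways for visibility and coloured by GC content. Red lines are medians of exon numbers with at least 3 members, which ran from 0.77 at 2 exons to -3.81 at 10 exons.

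The representative transcripts of the members were short, with a median of 1458.5 nucleotides against 3216 over protein-coding genes tested, and transcripts of this length were often lower in RIP. Of the 8305 protein-coding genes with transcripts over 2000 nucleotides, 12.8% were lower, and the median was 0.46 on the log2 scale. Of the 16 members over that length, 8 were lower and 1 higher, and their median was -1.52. Among the 2459 protein-coding genes tested with transcripts of 600 to 2000 nucleotides, 41.2% were lower, 7.56% were higher and the median log2 fold change was -1.25. Of the 61 members in this range, 39.3% were lower and 1.64% higher, with a median of -1.44. In this range the share of members lower was near that of all such genes, and above 2000 nucleotides it was higher. Above 2000 nucleotides the members had a median coding length of 508.5 nucleotides, against 1674 over all such genes. The genes compared there are thus unlike in structure, and lengths are those of annotated transcripts. Within this range and with 7 or more exons, 13 of 20 members were lower with a median of -2.84, and over all such protein-coding genes 44.6% were lower with a median of -1.48. With 4 to 6 exons, 37.5% of 24 members were lower with a median of -1.30, against 44.9% of all such genes with a median of -1.46. With 1 to 3 exons, 11.8% of 17 members were lower with a median of -0.21, against 26.5% with a median of 0.41. After a trend on exon length was removed from each library, 28 members were lower and 6 higher (18.1% and 13.9% of the protein-coding genes tested), with a median of -1.04.

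**Figure D3:**
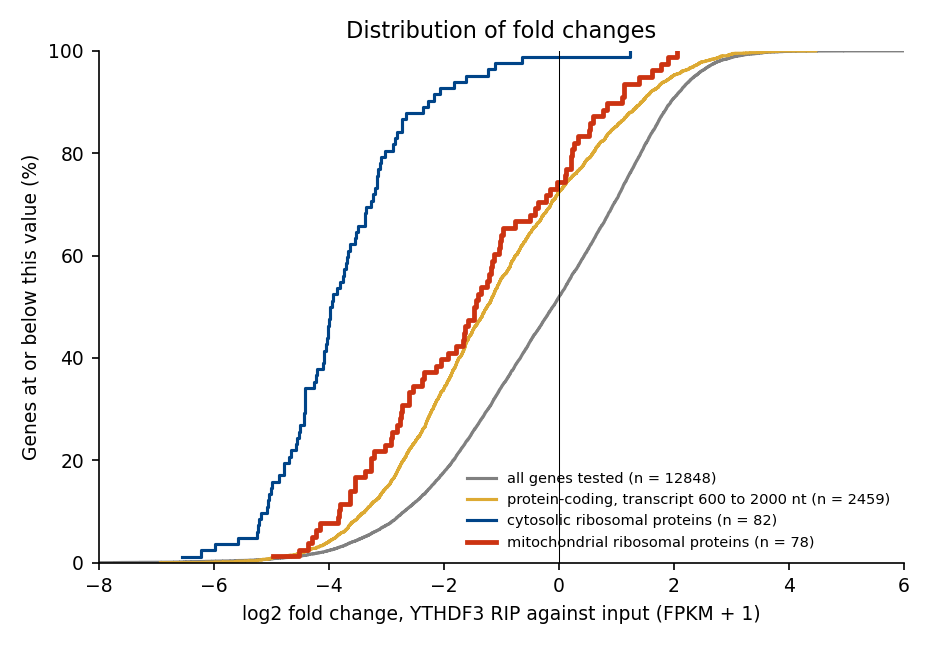
Cumulative share of genes in percent on the y axis by log2 fold change of RIP against input on the x axis, for all genes tested, protein-coding genes with transcripts of 600 to 2000 nucleotides, cytosolic ribosomal proteins and the 78 members. The curve of the members runs close to that of protein-coding genes with short transcripts (medians -1.45 and -1.25) and between all genes (-0.10) and cytosolic ribosomal proteins (-3.96).

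The members on chromosome 1 were higher in RIP 2 than in RIP 1, with a median difference of 1.45 (log2), and the pair on chromosome 10 had a median of 0.35. Of these 10, MRPL20, MRPL24, MRPS14, MRPL55, MRPL9, MRPL37, MRPS15 and MRPS21 lie on chromosome 1 and MRPS16 and MRPL43 on chromosome 10. None was called in either direction, and their median log2 fold change was -0.05. Of the 1571 protein-coding genes tested on these chromosomes, 115 were lower and 440 higher, with a median of 0.92. The median of these members thus lay below that of such genes, a difference that was not tested. Their transcripts were also shorter, with a median of 1254 nucleotides against 3210. RIP 2 differed from RIP 1 by a median of 1.21 (log2) for the 10 members and of -0.76 for the other 68. For protein-coding genes on and off these chromosomes the medians were 1.43 and -0.56. MRPL37 had 51.4 and 52.3 FPKM in input RNA against 29.7 FPKM (RIP 1) and 108 FPKM (RIP 2). MRPS15 had 67.7 and 51.1 FPKM in input RNA against 38.4 FPKM (RIP 1) and 122 FPKM (RIP 2). In both genes RIP 1 was below the inputs and RIP 2 above them. MRPL43, on chromosome 10, was an exception, with a difference of -0.07 between the RIP libraries. When the test was fitted on genes outside both chromosomes, 37 of 68 members were lower and 3 higher, against 28.5% and 16.6% of those genes.

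**Figure D4:**
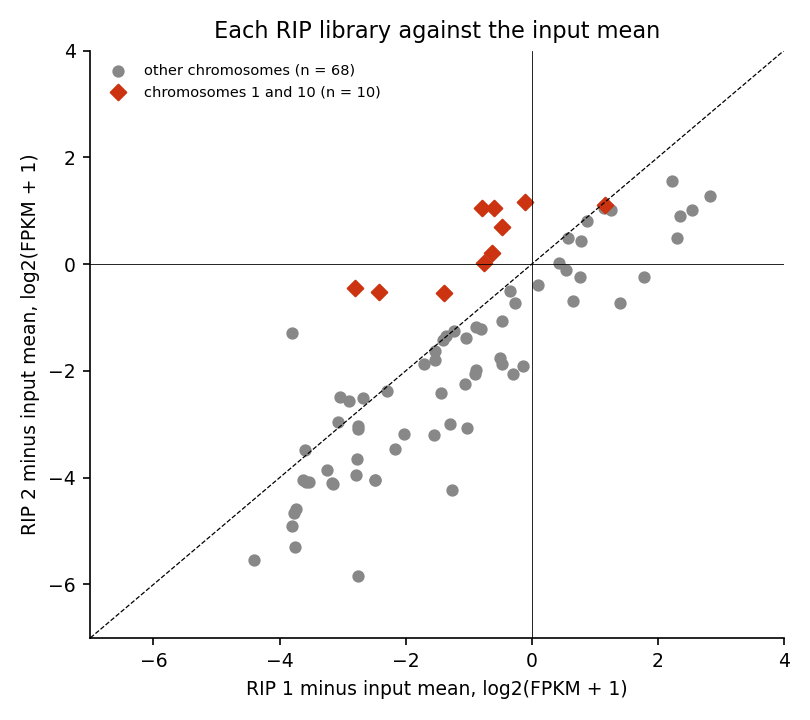
Difference of RIP 2 from the input mean on the y axis against that of RIP 1 on the x axis, in log2(FPKM + 1), for the 78 members. The dashed line marks equal differences, and red diamonds are the 10 members on chromosomes 1 and 10, whose median difference of RIP 2 from RIP 1 was 1.21 against -0.76 for the others.

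The summed level of the members depended on a few genes and differed between the RIP libraries. It was 2489 and 2598 FPKM in input RNA against 2215 FPKM (RIP 1) and 1428 FPKM (RIP 2). The RIP sums were both below the inputs, averaging 2543 ± 77.3 FPKM for input RNA and 1822 ± 557 FPKM for RIP (mean ± SD, n = 2 each; exact permutation test, two-sided, p = 0.33, the smallest that 2 against 2 allows). As a share of the summed FPKM of protein-coding genes, the members held 0.770% and 0.813% of the inputs, 0.794% of RIP 1 and 0.499% of RIP 2, so the groups overlapped.

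The other components of mitochondrial translation had medians between -0.05 and 1.07. Their transcripts were longer, with list medians from 1782 to 2729 nucleotides against 1458.5 for the members. The lists below were fixed by name, with earlier results of these data known. Of 5 mitochondrial ribosomal proteins with other symbols, 1 was higher and none lower, with a median of -0.05 on the log2 scale. That gene, CHCHD1, lies on chromosome 10 and had 24.8 and 20.1 FPKM in input RNA against 56.1 and 96.9 FPKM after RIP (limma, log2 change 1.68 with adjusted p = 0.0391). This call was lost without the filter (limma, adjusted p = 0.0649). DAP3, a small-subunit protein on chromosome 1, had 144 and 75.2 FPKM in input RNA against 54.7 FPKM (RIP 1) and 183 FPKM (RIP 2). The list's median is the fold of DAP3, which was -0.84 with RIP 2 adjusted within chromosomes. RIP 2 differed from RIP 1 by a median of 0.78 (log2) in this list, against -0.52 over the members. The list median therefore carries the excess signal of RIP 2. GADD45GIP1, of the large subunit, had the lowest fold of the 5 (limma, log2 change -1.03 with adjusted p = 0.146).

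Of 17 mitochondrial translation factors, 1 was lower, 1 higher and the median was -0.02. The lower one, the initiation factor gene MTIF2, had 45.4 and 29.6 FPKM in input RNA against 8.79 and 11.3 FPKM after RIP (limma, log2 change -1.78 with adjusted p = 0.0313), a call lost without the filter (0.0524). The higher one, the release factor family gene C12orf65, had 12.8 and 16.8 FPKM in input RNA against 40.5 and 61.5 FPKM after RIP (limma, log2 change 1.70 with adjusted p = 0.0347), a call lost without the filter (0.0565) and with the length trend removed (0.0569). TUFM, the elongation factor Tu of mitochondria, had 44.1 and 37.4 FPKM in input RNA against 55.9 and 39.6 FPKM after RIP. Of 23 assembly factors tested (MRM1 did not pass the filter), 1 was lower, 3 higher and the median was 0.74. Folds there ran from -2.26 for METTL17 to 2.13 for NSUN4, which lies on chromosome 1 and had 8.14 FPKM in RIP 1 and 124 FPKM in RIP 2, and neither passed (adjusted p = 0.0689 and 0.171, limma).

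Of 17 mitochondrial aminoacyl-tRNA synthetases, which charge tRNAs in the organelle, 3 were lower, 3 higher and the median was 1.07. NARS2 had 9.04 and 13.7 FPKM in input RNA against 0.568 and 0.767 FPKM after RIP (limma, log2 change -2.87 with adjusted p = 0.0105). PARS2, on chromosome 1, had 3.69 and 4.48 FPKM in input RNA against 39.6 and 140 FPKM after RIP (limma, log2 change 3.90 with adjusted p = 0.0116). The 82 cytosolic ribosomal protein genes had 74 lower, none higher and a median of -3.96, from -6.55 for RPL39 to 1.23 for RPL7L1. Their median transcript length was 1010.5 nucleotides, and for 79 of them both RIP values lay below both inputs. The difference between these lists and the members was not tested.

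Exons of 41 members overlap those of another annotated gene, and 34 members have pseudogenes named after them, with which reads may be shared. Among the 37 members without such overlap, 15 were lower and 1 higher, with a median of -1.24, and among the 41 with it 17 and 1, with a median of -1.62. Among the 44 members without a named pseudogene, 15 were lower and 1 higher, with a median of -1.15, and among the 34 with one 17 and 1, with a median of -1.86. MRPL57 has 5 named pseudogenes, and an exon of MRPL34 overlaps ABHD8 on the other strand.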

How the data were processed

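Values were read for 2 input and 2 YTHDF3 RIP libraries, grouped by their titles and numbered in accession order. The authors deposited values normalized for length and library total, taken here as FPKM although no header names the unit, since sums of value times exon length are close between libraries. The submitters' processing notes list HISAT2 and GRCh38 (hg38). How reads were counted, against which annotation and with what strand setting is not given in the sources used here. The extraction text in the labels names embryos and an m6A antibody, which does not match the cell line or the antibody listed for RIP. From 36217 rows, 14 repeats of an identifier were removed. Low values came out as whole reads (within 0.03 of a read) for only 36.7% to 41.1%, so no count test was run.

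The 12848 genes reaching 1 FPKM in 2 libraries or more were compared on log2(FPKM + 1) with limma 3.58.1 (mean-variance trend, no block) in R 4.3.3, two-sided, with Benjamini-Hochberg adjustment over all genes tested and a threshold of 0.05. The code was tested on simulated data. Positions and transcript features came from GENCODE release 29, with 1 principal transcript per gene. The members, lists and comparisons were chosen with earlier results of these data known. Named members are the 8 lowest and 8 highest folds, those called higher, the 5 most abundant in input, the S18 paralogs and the 2 nearest the threshold on each side. For each other list the lowest and highest folds are named, with DAP3 and TUFM. Further examples, and the structural groups, were chosen after their values were seen. Alternatives tried were a pseudocount of 0.1, no filter, quantile and median scaling, leaving out chromosomes 1 and 10 or adjusting RIP 2 within chromosomes, removal of a length trend, no variance trend, a replicate block and leaving out each library.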

Additional observations from a re-analysis of the deposited data

How the results depend on the processing

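The count of members lower in RIP stayed within 1.5 times of 32 under every alternative except with either input left out, and all 32 kept a log2 fold change below 0 throughout. Leaving out each library in turn gave 0 to 45 lower, 0 to 9 higher and medians of -1.77 to -1.25. The count of members higher in RIP was 2 as reported, against 15.4% of all genes tested. It was 1 with a pseudocount of 0.1 (11.6% of all genes) and 1 with no filter (3.88%). With median scaling it was 6 (22.6%) and with RIP 2 adjusted within chromosomes 7 (27.4%). With the length trend removed it was 6 (13.9% of protein-coding genes tested). The median of the members, -1.45 as reported, was -1.26 with median scaling, -1.66 outside chromosomes 1 and 10, -1.25 with RIP 2 adjusted within chromosomes and -1.04 with the length trend removed. The cause was not tested. Median scaling moved the median of all genes from -0.10 to 0.09, and quantile normalization moved it to 0.13.

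Signs turned for several uncalled genes. DAP3 (-0.053) had 0.14 with quantile normalization and with median scaling, 0.41 without input 1 and, with RIP libraries left out, -0.91 to 0.81. TUFM (0.21) had -0.034 to 0.45 in the same way. MRPL12 had 0.57 and MRPS18A 0.10 with the length trend removed. MRPS12 was below 0 without RIP 1, MRPL37 and MRPS15 were below 0 without RIP 2, and MRPL10 was above 0 without RIP 2. Leaving out a RIP library also turned the sign of MRPS16, MRPL55, MRPS26, MRPL9, MRPL46, MRPS34, MRPS33 and MRPS21.

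Titles pair the libraries by a suffix whose meaning the labels do not give. Deviations of libraries with the same suffix had a correlation of 0.21 across genes. With the replicate block 38 members were lower and 4 higher, against 27% and 19.3% of all genes tested. MRPL14, MRPL36, MRPL45, MRPS17, MRPS18B and METTL17 passed under the block (limma, adjusted p from 0.0247 to 0.0494). Precision is limited by 2 libraries a group and by the low depth of RIP 2.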
